A study of Mus musculus with 6 samples.

Results

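NADPH oxidase is the membrane enzyme that moves electrons from NADPH to oxygen and so makes superoxide. In phagocytes its catalytic core is gp91phox, encoded by *Cybb*, held in the membrane by p22phox, encoded by *Cyba*. The core is silent until cytosolic subunits join it, among them the organiser p47phox (*Ncf1*), p40phox (*Ncf4*) and a small GTPase of the Rac family (*Rac1* or *Rac2*). The 6 genes *Cybb*, *Cyba*, *Ncf1*, *Ncf4*, *Rac1* and *Rac2* are described here, chosen by the gene name that the array design gives each probe. They are 6 of the 27244 named genes on the array and have 11 probes, of which 10 carry a RefSeq accession of the same gene.

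Gene expression was measured in LSK cells, bone marrow cells that lack lineage antigens and carry Sca-1 and c-Kit, among which are haematopoietic stem cells and early progenitors. The 3 control samples came from *Atg5w/w;Vav* mice and the other 3 from *Atg5f/f;Vav* mice, in which Cre driven by a *Vav* promoter deletes the autophagy gene *Atg5* in blood-forming cells, all at postnatal day 6 to 8. Both groups therefore carry Cre. The lineage antibodies used for mice of this age left out Mac-1, the product of *Itgam*, so that marker did not remove cells from the gate. The sources used here do not say whether a sample is 1 mouse or a pool, so every n and SD refers to arrays and the p-values measure the spread between these samples only.

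The log2 signal given below is the log2 intensity of a probe relative to the 75th percentile of its array. It orders arrays for 1 probe and does not order different probes. Between 51.6% and 58.2% of probes were well above background on an array, with the 3 lowest shares on the arrays labelled *Atg5f/f;Vav*. The 6 arrays shared 1 slide and 1 scan, and its 2 rows each held 1 group, so the effects of row and genotype cannot be told apart. The only *Atg5* probe starts at base 2251 of the transcript (mm9 chromosome 10, 44083997 to 44084056, plus strand). Control arrays read 1.10, 0.93 and 1.06, against 1.46, 1.51 and 1.74 for those labelled *Atg5f/f;Vav*. The labelled deletion is thus not seen as a lower signal at this probe, which was higher by 0.54 (SE 0.12, adjusted p = 0.0209, limma), and whether the probe lies in the deleted part was not determined. The second group is therefore called by its label throughout. By other assays, the paper describes efficient *Atg5* deletion with this Cre and the build-up of an autophagy reporter in neonatal LSK cells of this genotype.

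No probe that represents a subunit gene passed the threshold. In the limma fit over all 32074 tested probes, 34.4% were called at an adjusted p under 0.05, and 0 of the 6 probes that represent the subunit genes were among them. At an unadjusted p under 0.05 the count was also 0 of 6 in limma, and the methods' t-test gave 2 of 6, *Cyba* and *Rac1*, of which 0 passed Benjamini-Hochberg adjustment. The absolute difference had a median of 0.18 over the 6 genes and 0.36 over all tested probes. The standard errors had alike medians, 0.14 for the 6 genes and 0.15 for all tested probes, but ranged from 0.10 for *Cyba* to 0.29 for *Cybb*. The smallest absolute difference called anywhere on the array was 0.30, and each of the 6 differences was below it. A p that misses the threshold does not show that levels were equal, so each gene is given below with the interval of its difference.

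**Figure D1:**
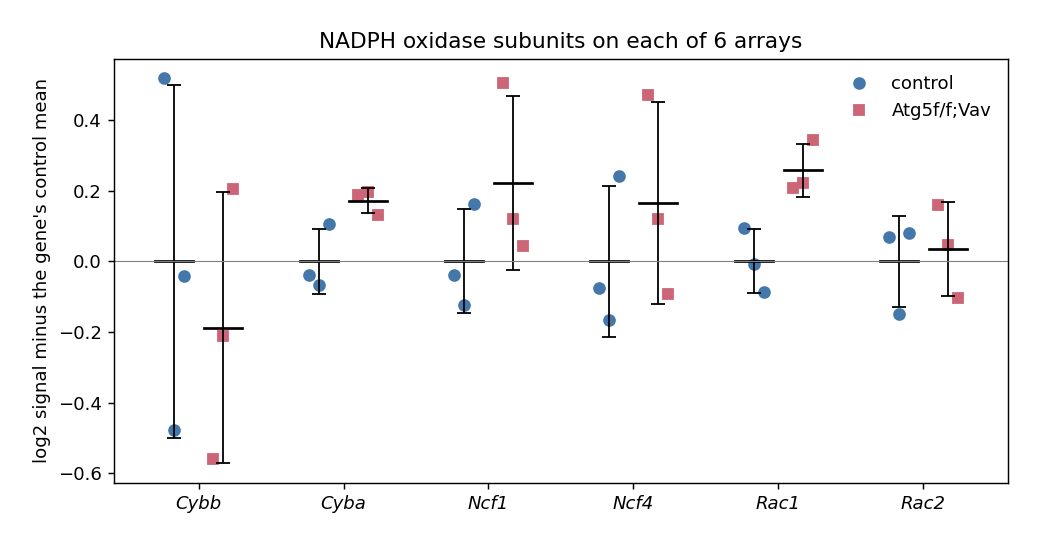
Log2 signal of the probe representing each subunit gene on each array, minus that gene's mean over the 3 control arrays (blue circles, control; red squares, arrays labelled Atg5f/f;Vav; black lines, mean ± SD, n = 3 arrays). The 2 groups overlap for Cybb, Ncf1, Ncf4 and Rac2, and do not overlap for Cyba and Rac1.

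The catalytic subunit, gp91phox, was read by a pair of dim probes. The *Cybb* probe that could be tested (mm9 chromosome X, 9014314 to 9014373, minus strand, starting at base 2756 of the transcript) read -3.77, -4.76 and -4.33 in control and -4.85, -4.50 and -4.08 in the arrays labelled *Atg5f/f;Vav*. The scanner software set it well above background on control arrays 1 and 3 and on *Atg5f/f;Vav* array 3 only. The highest value belonged to control array 1, the lowest to *Atg5f/f;Vav* array 1, and the groups overlapped. The difference was -0.19 (SE 0.29, 95% interval -0.88 to 0.51, adjusted p = 0.634), a fold of 0.878 with an interval from 0.543 to 1.42. The second *Cybb* probe, starting at base 3854, passed that mark on control arrays 1 and 3 alone and was not tested. These arrays therefore leave *Cybb* with the widest interval of the 6 genes.

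The promoter of *Cybb* is shown because transcription factors known for this gene did change, as given further on. The window holds the 250 bases before the start of the RefSeq transcript (GRCm38.p6, minus strand, chrX:9469325-9469574). Capitals mark 3 kinds of letters, searched on both strands: GAAANNGAAA, the type bound by interferon regulatory factors, AGGAA, a core of the type bound by PU.1, and the CCAAT box. The window of *Ncf1* (chr5:134229626-134229875, minus strand) is printed beside it, with its match to GAAANNGAAA in capitals.
Cybb: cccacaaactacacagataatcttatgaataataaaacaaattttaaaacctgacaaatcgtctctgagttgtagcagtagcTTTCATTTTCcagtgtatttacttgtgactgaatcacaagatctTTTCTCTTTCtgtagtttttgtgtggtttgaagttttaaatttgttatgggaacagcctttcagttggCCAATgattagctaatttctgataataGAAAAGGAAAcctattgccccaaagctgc
Ncf1: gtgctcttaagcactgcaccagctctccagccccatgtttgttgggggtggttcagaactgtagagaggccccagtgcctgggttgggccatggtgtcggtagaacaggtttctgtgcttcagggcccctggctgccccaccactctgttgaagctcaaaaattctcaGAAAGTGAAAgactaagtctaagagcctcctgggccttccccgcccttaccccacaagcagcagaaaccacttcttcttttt

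The *Cybb* window held 3 matches to GAAANNGAAA and the *Ncf1* window 1, while 2.98% of 32851 promoter windows of this length held any and 0.0122% held 3 or more. The match nearest the *Cybb* start also contains the single AGGAA, letters that 60.3% of windows hold, and the 1 CCAAT box lies further from the start, letters that 33.8% hold. The window of *Cyba* held none of the 3. A match is a description of letters and does not show that a factor binds there.

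*Cyba* was measured by 3 probes that did not move alike. The representing probe (mm9 chromosome 8, 124948726 to 124948785, minus strand, from base 644 of the transcript) read 4.63, 4.599 and 4.77 in control and 4.86, 4.86 and 4.80 in the arrays labelled *Atg5f/f;Vav*. The groups did not overlap, but by a margin smaller than the spread of the controls. The difference was 0.17 (SE 0.10, 95% interval -0.08 to 0.42, adjusted p = 0.230), a fold of 1.13 with an interval from 0.948 to 1.34. A second probe, from base 165, covers 411 bases of the genome (124951180 to 124951590) with its 60 letters and so crosses an intron. It read 1.96, 1.98 and 2.21 in control and 2.46, 2.32 and 2.35 in the other arrays, again without overlap. Its difference of 0.32 (SE 0.12, 95% interval 0.05 to 0.60) had an adjusted p of 0.0699. It passed the threshold in 2 of 17 alternatives, normexp background correction (0.34, adjusted p = 0.0394) and an intensity trend in the variance (adjusted p = 0.0415). The difference was 0.13 under quantile normalisation (adjusted p = 0.363) and 0.12 with a 75th percentile over detected probes (adjusted p = 0.383).

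The third probe named *Cyba* went the other way. It matches a single cDNA, AK154184, and lies 1677 bases beyond the intron-crossing probe, on the side of the gene's start (124953268 to 124953327, minus strand). It read -2.64, -2.67 and -3.11 in control and -3.52, -3.55 and -3.43 in the arrays labelled *Atg5f/f;Vav*, which were all lower. The signal fell by 0.69 (SE 0.15, 95% interval -1.06 to -0.33, adjusted p = 0.0200), a fold of 0.618. It was 1 of 9 tested probes of the subunit genes to be called, against 34.4% of all probes, and the call was lost in 6 of 17 alternatives. Without control array 1 or 2 the difference was -0.61 and -0.63 (adjusted p = 0.0760 and 0.0791), and it was -0.40 under quantile normalisation (adjusted p = 0.0719) and -0.46 with normexp, where it was still called (adjusted p = 0.0171). Which transcript it reads was not determined. The letters of both probes are given to show that they share no stretch of the gene, as the array design lists them.
Cyba, intron-crossing probe: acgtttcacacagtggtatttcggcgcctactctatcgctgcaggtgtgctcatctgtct
Cyba, cDNA probe: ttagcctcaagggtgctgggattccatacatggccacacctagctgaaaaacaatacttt

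**Figure D2:**
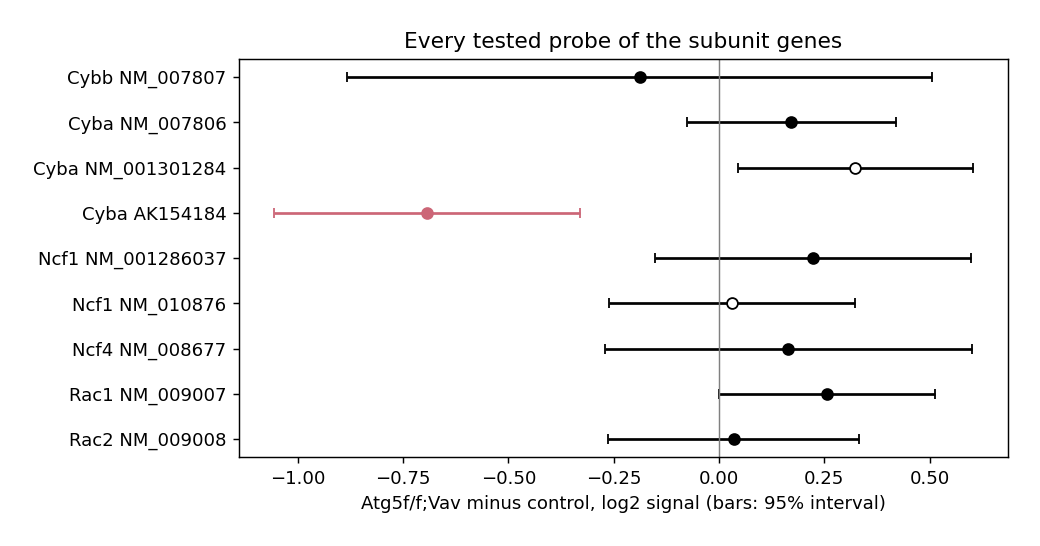
Difference between the arrays labelled Atg5f/f;Vav and control in log2 signal, with its 95% interval, for the 9 tested probes of the 6 genes (filled, the probe that represents its gene; open, other probes; red, called lower). The cDNA probe named Cyba is the only one called, at -0.69, while the other Cyba probes lie at 0.17 and 0.32.

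Of the cytosolic subunits, p47phox is the organiser that brings the complex to p22phox once it is phosphorylated. The representing *Ncf1* probe (mm9 chromosome 5, 134696380 to 134696439, minus strand) read 0.07, -0.02 and 0.27 in control and 0.61, 0.23 and 0.15 in the arrays labelled *Atg5f/f;Vav*. Only *Atg5f/f;Vav* array 1 stood above all controls. The difference was 0.22 (SE 0.16, 95% interval -0.15 to 0.60, adjusted p = 0.297), a fold of 1.17. A second probe, from base 1392 and closer to the gene's start, gave 0.032 (95% interval -0.26 to 0.32, adjusted p = 0.856). Another, on a non-coding *Ncf1* transcript, was well above background on 1 array and was not tested.

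The regulator p40phox binds the membrane lipid phosphatidylinositol 3-phosphate and keeps the oxidase active on phagosomes. *Ncf4* (chromosome 15, 78092903 to 78092962, plus strand) read 2.95, 2.86 and 3.26 in control and 3.49, 3.14 and 2.93 in the other arrays. The order of the arrays resembled that of *Ncf1*, with *Atg5f/f;Vav* array 1 highest of all 6 and control array 2 lowest in both genes. The difference was 0.16 (SE 0.18, 95% interval -0.27 to 0.60, adjusted p = 0.502), a fold of 1.12.

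*Rac1*, the Rac GTPase found in most tissues, had the largest difference of the 6 under this scaling. Its probe (chromosome 5, 144267722 to 144267781, minus strand) read 3.74, 3.64 and 3.56 in control and 3.86, 3.87 and 3.99 in the arrays labelled *Atg5f/f;Vav*, without overlap. The difference was 0.26 (SE 0.11, adjusted p = 0.103), a fold of 1.19 with a 95% interval from 1 to 1.43. Groups that do not overlap were common here, being found for 55.4% of tested probes and for 2 of the 6 subunit genes, *Cyba* and *Rac1*. An exact permutation test of 3 arrays against 3 cannot give a two-sided p below 0.1.

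*Rac2*, the Rac GTPase particular to blood cells, lies 298489 bases from the *Ncf4* probe on chromosome 15 (78391452 to 78391511, minus strand). It read 4.77, 4.56 and 4.78 in control and 4.87, 4.75 and 4.60 in the arrays labelled *Atg5f/f;Vav*, where array 3 was below 2 of the controls. The difference was 0.034 (SE 0.13, 95% interval -0.26 to 0.33, adjusted p = 0.845). The fold of *Rac2* was 1.02 under this scaling, with a 95% interval from 0.834 to 1.26.

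The direction of most subunits turned with the scaling of the arrays. Under quantile normalisation *Cyba*, *Ncf4*, *Rac1* and *Rac2* were at -0.19, -0.10, -0.063 and -0.33 and *Cybb* at 0.15, and only *Ncf1* kept its sign among the 6. When only probes detected on every array set the 75th percentile, the median of all probes moved from -0.061 to -0.27, and *Cyba*, *Ncf4* and *Rac2* stood at -0.034, -0.041 and -0.17, *Rac1* at 0.051, *Ncf1* at 0.016 and *Cybb* at -0.39. Leaving out 1 array, in the 3 cases where its probe was still tested, moved *Cybb* between -0.43 (without control array 2) and -0.0024 (without *Atg5f/f;Vav* array 1). *Ncf4* and *Ncf1* moved between 0.012 and 0.29 and between 0.082 and 0.31. None of these values was called, and the number of subunit genes called was 0 under every alternative that was run.

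**Figure D3:**
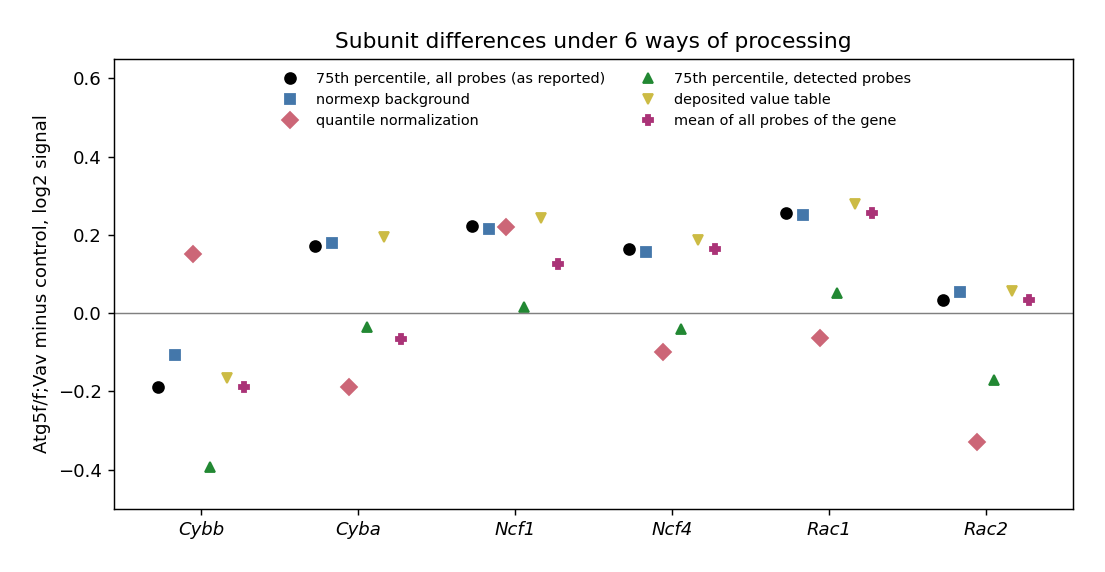
Difference of each subunit gene in log2 signal between the arrays labelled Atg5f/f;Vav and control, under 6 ways of processing (one symbol each). Quantile normalisation places Rac2 at -0.33 and Cybb at 0.15, on the other side of 0 from the reported values, and Ncf1 stays above 0 throughout.

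Around the 6 subunits, 51 genes of the oxidase pathway were listed by role, and 46 had a tested probe. At the probe that represents each gene, 7 of these rose and 8 fell. That is 32.6% against 34.4% of all probes, with a median difference of -0.044 against -0.061. Without control array 1, or without control array 2, only 1 was called higher and 0 lower, as the calls over all probes dropped from 11024 to 221 and 157. Of the 15 pathway calls, that of *Irf1* was made without either array. The other 14 were lost without either one, while their differences stayed at 77.3% to 104% of the full value without control array 1 and at 89.5% to 109% without control array 2.

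Of the other catalytic subunits 3 of 5 were tested, and *Nox4* was called. The *Nox4* probe, which matches an Ensembl transcript, read -0.68, -0.83 and -1.11 in control and -1.83, -1.30 and -1.63 in the arrays labelled *Atg5f/f;Vav*, and fell by 0.71 (SE 0.18, adjusted p = 0.0263). The RefSeq probe for *Nox4* from base 1223 was not well above background on any array, and neither was another Ensembl probe. A RefSeq probe from base 1987 was well above background on 1 *Atg5f/f;Vav* array alone, with array 3 at -3.98 and the other arrays at -6.53 or less. None of these other *Nox4* probes was tested. *Nox3* and *Duox1* were not tested, being dim on all arrays.

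Among 7 organisers, activators and partners, 5 were tested, 0 were called higher and 1 lower. *Noxa1*, an activator of non-phagocytic oxidases, fell by 0.58 (SE 0.13, adjusted p = 0.0205). *Cybc1*, which helps gp91phox reach the membrane and has an older name on this array, was at 0.18 (SE 0.11, adjusted p = 0.224).

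The Rac GTPases are switched on by exchange factors and held in the cytosol by inhibitors. The list of 11 Rac regulators, all tested, also held *Arhgap15* and *Arhgap25*, which are neither. At the probe that represents each gene 1 rose and 2 fell. The representing probes of *Arhgap15*, *Vav3* and *Prex1* were not called. Other probes were called lower for *Arhgap15* (-0.61, -0.81, -1.32 and -1.23), *Vav3* (-0.60 and -0.85) and *Prex1* (-0.45). Those at -1.32, -1.23 and -0.85 were well above background on all control arrays and at most 1 of the others. Other probes of *Arhgdib*, *Tiam1* and *Vav2* were not called. *Dock2*, the Rac exchange factor of blood cells, read 2.18, 2.304 and 2.02 in control and 1.65, 1.69 and 1.21 in the arrays labelled *Atg5f/f;Vav*, and fell by 0.65 (SE 0.16, adjusted p = 0.0263). *Elmo1*, the partner of DOCK proteins, fell by 0.68 (SE 0.18, adjusted p = 0.0283) at a probe that matches an Ensembl transcript. Its RefSeq probe from base 2123 was at -0.20 and not called (adjusted p = 0.381). The RefSeq probes from bases 1308 and 5494 and another Ensembl probe were called lower, at -0.64, -0.71 and -1.71. *Arhgdia*, an inhibitor that binds Rac proteins, rose by 0.59 (SE 0.12, adjusted p = 0.0181), but was at 0.26 under quantile normalisation, where it was not called (adjusted p = 0.0812). The exchange factor *Vav1* was at 0.069 (adjusted p = 0.698).

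Of 15 kinases and lipid enzymes known for oxidase assembly, all tested, 1 rose and 4 fell. *Prkcb*, a protein kinase C isoform that phosphorylates p47phox, read -0.12, -0.22 and 0.17 in control and -0.40, -1.05 and -1.59 in the other arrays, and fell by 0.96 (SE 0.29, adjusted p = 0.0443). *Pik3cg*, the class I lipid kinase downstream of G-protein-coupled receptors, fell by 0.94 (SE 0.18, adjusted p = 0.0166), and *Prkca* fell by 0.69 (SE 0.15, adjusted p = 0.0201). A second *Prkca* probe, well above background on all 6 arrays, was at 0.0093 (SE 0.17, adjusted p = 0.970). *Pik3c3*, the kinase that makes the lipid bound by p40phox, rose by 0.49 (SE 0.14, adjusted p = 0.0411). The remaining fall was that of *Prkcz*, at -0.51 (adjusted p = 0.0340), whose probe was well above background on all control arrays and 1 of the others. The calls of *Prkcb* and *Pik3c3* were each lost in 10 of 17 alternatives and that of *Prkcz* in 10 of 15, with -0.17 under quantile normalisation (adjusted p = 0.406).

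Of the genes that remove superoxide or balance its charge, 4 of 5 were tested and 1 was called. *Sod1*, the cytosolic superoxide dismutase, rose by 0.74 (SE 0.16, adjusted p = 0.0188), or by 0.48 under quantile normalisation (adjusted p = 0.0459), and its second probe was at 0.22 (adjusted p = 0.448). *Sod2* and *Cat* were at 0.40 and 0.47 with adjusted p-values of 0.0575 and 0.0565.

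**Figure D4:**
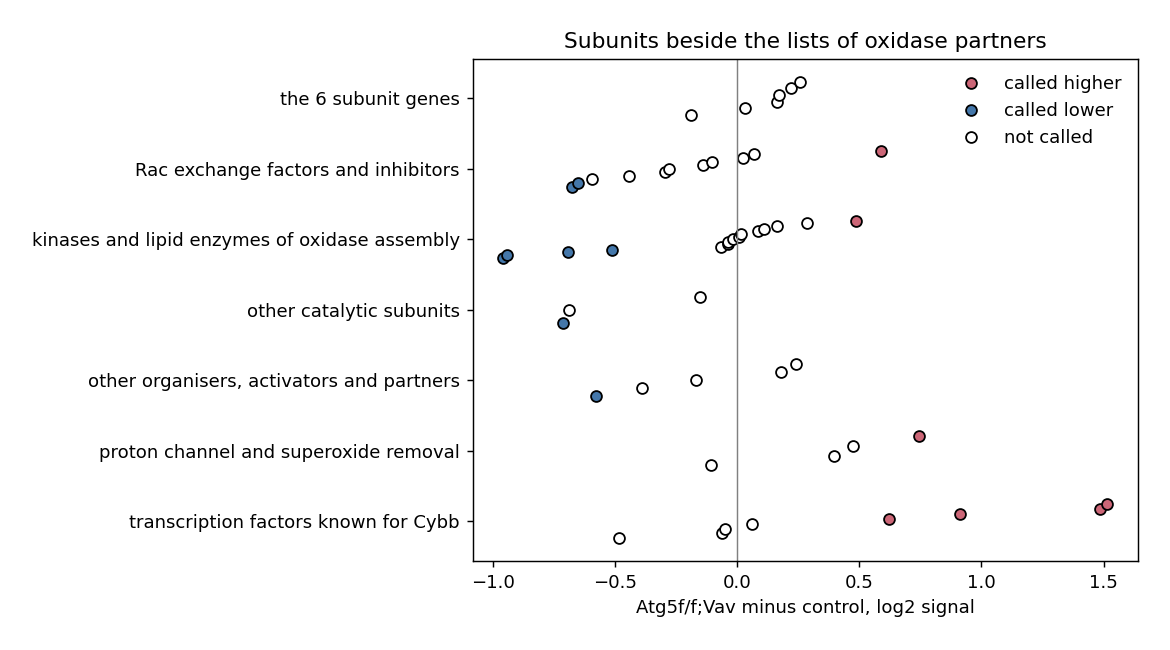
Difference in log2 signal between the arrays labelled Atg5f/f;Vav and control for the 6 subunit genes (top row) and for each tested gene of the 6 pathway lists, 1 point per gene (red, called higher; blue, called lower; white, not called). The subunits lie between -0.19 and 0.26, while the listed genes reach from -0.96 for Prkcb to 1.51 for Irf1.

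The pathway list with the highest share of calls among the 6 held transcription factors known for *Cybb*. At the representing probes 4 of 8 rose, against 17.3% of all probes called higher, and 0 fell, with a median difference of 0.34. For *Elf1* the representing probe was at -0.060 (adjusted p = 0.713), while a second probe was called lower, at -0.38 (adjusted p = 0.0344). The second probes of *Irf1* and *Irf8* were called higher, at 1.54 and 0.87. *Irf1*, an interferon-induced factor, read 3.18, 3.07 and 3.35 against 4.602, 4.63 and 4.92, and rose by 1.51 (SE 0.14, adjusted p = 0.00547). *Irf8*, a factor of monocyte and dendritic cell development, rose by 1.49 (SE 0.31, adjusted p = 0.0179). Both genes were higher on all 3 *Atg5f/f;Vav* arrays than on any control array.

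The remaining calls in this list were *Cebpa*, at 0.91 (SE 0.21, adjusted p = 0.0214), and *Cebpb*, at 0.62 (SE 0.13, adjusted p = 0.0174), both factors of granulocyte and monocyte development. *Spi1*, which encodes PU.1, read -1.47, -1.68 and -1.74 in control and -1.40, -1.70 and -1.95 in the other arrays. Its difference was -0.050 (SE 0.17, 95% interval -0.44 to 0.34, adjusted p = 0.830). *Cybb* read on overlapping levels in arrays where *Irf1* and *Irf8*, like 55.4% of tested probes, did not overlap, with the limit that the *Cybb* probe was near background. Whether these factors act on *Cybb* in these cells was not tested.

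**Figure D5:**
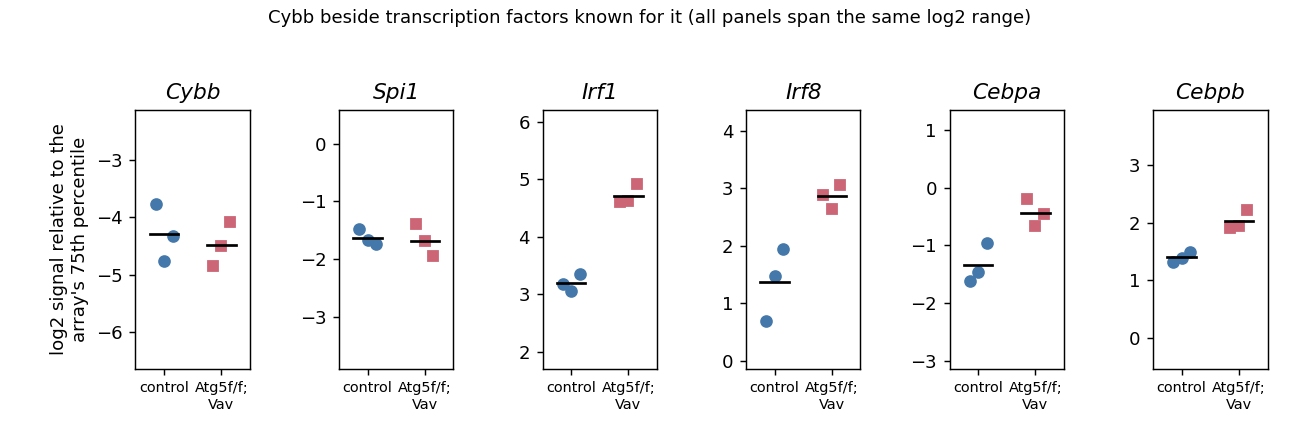
Log2 signal relative to the array's 75th percentile for Cybb and 5 transcription factors known for it (blue circles, 3 control arrays; red squares, 3 arrays labelled Atg5f/f;Vav; lines, means), with every vertical axis spanning the same range. Irf1, Irf8, Cebpa and Cebpb do not overlap between groups, while Cybb and Spi1 do.

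Phagocytes are the cells best known for this enzyme, and several markers of myeloid cells were called. Of 12 tested neutrophil markers 8 fell and 1 rose, against 17.1% of all probes called lower and 17.3% called higher. The summed linear signal of the neutrophil markers was 112 to 205 times the 75th percentile on control arrays and 58.9 to 84.8 on the others. *S100a9* and *S100a8*, calcium-binding proteins of neutrophils, fell by 1.34 and 1.38, with adjusted p-values of 0.0235 and 0.0252. *Itgam* was at -0.62 (adjusted p = 0.0618). The sums on control arrays 1 to 3 were 205, 112 and 152, beside *Cybb* readings of -3.77, -4.76 and -4.33, in the same order. On *Atg5f/f;Vav* arrays 1 to 3 the sums were 84.8, 64.8 and 58.9, beside *Cybb* readings of -4.85, -4.50 and -4.08, in the reverse order. Only the *Cybb* readings of control arrays 1 and 3 and *Atg5f/f;Vav* array 3 were well above background. A link between the sums and *Cybb* was not tested. *Ly6g* was the neutrophil marker that rose, and *Cd177* was not well above background on any array.

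Of 7 early myeloid progenitor markers 4 rose and 0 fell, against 17.3% of all probes called higher and 17.1% lower. Their sums were 217 to 306 on control arrays and 333 to 374 on the others. *Csf3r*, *Mpo* and *Ctsg* were at -0.32, 1.0 and 1.91 (adjusted p = 0.0949, 0.0391 and 0.0301). Of 15 monocyte and macrophage markers, 11 were tested, 3 rose and 2 fell. That is 45.5% called against 34.4% of all probes, and the sums overlapped, at 47.1 to 49.6 and 43.0 to 50.2. *Ly6c2*, *Lyz2* and *Csf1r* were at 0.56, -0.86 and 0.33 (adjusted p = 0.0174, 0.0484 and 0.138). *C1qa*, *C1qc*, *Cd14* and *Mrc1* were not well above background on enough arrays to be tested. Fewer cells of a type and less RNA per cell cannot be told apart in bulk samples, and the part of these cells in the subunit values was not tested.

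Other marker lists touch the comparison as a whole, in which 17.3% of all probes were called higher and 17.1% lower. The 6 LSK and SLAM surface markers were well above background on all arrays, and 1 of them, *Ly6a*, rose by 1.57 (adjusted p = 0.00623), while *Kit* was at -0.38 (adjusted p = 0.0563). Of the other antigens in the neonatal lineage gate 1 of 4 tested rose. Among 8 erythroid markers 3 rose and 4 fell, and among 5 megakaryocyte markers 1 rose and 2 fell. Of 8 B cell markers 1, *Cd79a*, rose, and 0 of 7 tested T and NK cell, 0 of 4 tested dendritic cell and 0 of 6 mast cell and eosinophil markers were called. Of 6 tested stromal markers 3 fell, and *Col1a1* read -4.14, 3.23 and 2.95 in control against -5.23, -5.16 and -5.49, so that control arrays 2 and 3 stood apart. *Col1a1* and *Ppbp*, 1 of the megakaryocyte falls, were well above background on control arrays alone, and *Cd79a* on 1 control array and all 3 of the others, so each passed the filter through the group where it was high. Of 33 marker genes called in all, 4 were called without control array 1 and 3 without control array 2, *Ly6a* among them both times. Without control arrays 2 and 3 together, 0 subunit genes and 0 probes overall were called.

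For each subunit the named genes with the nearest pattern over the 6 arrays were found among 14457 genes well above background on all of them, by the distance between centred log2 signals. *Cyba* lay nearest *2810001A02Rik*, *Anapc4* and *Ccdc107*, at distances of 0.0171, 0.0410 and 0.0460. *Rac1* lay nearest *Sirpb1a* (0.0178), *Ankrd9* and *Chrac1*, and *Rac2* nearest *Ppm1d* (0.0363), *Gstt2* and *Sypl*. *Ncf4* lay nearest *Serpinb1c* (0.0933), *Med25* and *Specc1l*, and *Ncf1* nearest *Tec* (0.104), *Mdh1* and *Pdcl3*. The dim *Cybb* probe had no gene closer than *Neu2*, at 0.314. With 6 arrays and this many candidates, near patterns are a description of the arrays.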

How the data were processed

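RNA of LSK cells from 3 control and 3 *Atg5f/f;Vav* samples was hybridised to 1-colour Agilent arrays of 60-mer probes, annotated on mm9. The authors deposited, per the file headers, the intensity of each of 62976 spots, background-corrected by Agilent Feature Extraction 12.0.3.1, and a table of normalised signal, which equals that intensity divided by the array's 75th percentile. The log2 intensity was taken minus the array's 75th percentile over 59305 non-control spots. Outlier-flagged spots were left out, spots of a probe averaged, and no spot was saturated. Limma 3.58.1 (lmFit, eBayes; R 4.3.3) was run on 32074 of 56605 probes, those well above background on 3 or more of the 6 arrays, with Benjamini-Hochberg adjustment and a threshold of 0.05. Where a gene had several probes, the one of highest mean signal represents it. The script was tested on simulated data. Precision is limited by the number of arrays.

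All probes of the 6 genes are given, and *Nox4* and *Spi1* always. Some genes of the lists are not reported here. For each pathway list up to 3 rises and 3 falls past the threshold with the largest size are named, for marker lists up to 3 genes of the highest signal and *Itgam*. *Cebpb*, *Prkcz*, *Vav1*, *Sod2*, *Cat*, *Cybc1* and the markers *Ly6g*, *Cd177*, *Ly6a*, *Kit*, *Cd79a*, *Ppbp* and *Col1a1* were named after their values were seen. So were *Arhgap15*, *Arhgap25*, *Vav2*, *Vav3*, *Prex1*, *Arhgdib*, *Tiam1*, *Elf1* and the markers *C1qa*, *C1qc*, *Cd14* and *Mrc1*. The members and lists were chosen with earlier results of these data known. *Cybc1* was matched by accession. Promoter sequences are those of RefSeq on GRCm38.p6, found for 3 of the 6 genes. *Ncf4*, *Rac1* and *Rac2* are named only. The alternatives were another background correction, other scalings, filters and variance models, a block for the replicate number, the methods' t-test, averaging a gene's probes and leaving out each array. Leaving out control arrays 2 and 3 together, and the marker counts without control array 1 or 2, were added after seeing the data.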

Additional observations from a re-analysis of the deposited data

How the results depend on the processing

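The count of subunit genes called stayed at 0 in each alternative, though *Cybb* was not tested where a probe had to be well above background on all 6 arrays, nor without control array 1, control array 3, *Atg5f/f;Vav* array 3 or control arrays 2 and 3. Quantile normalisation turned the differences of *Cybb* (0.15), *Cyba* (-0.19), *Ncf4* (-0.10), *Rac1* (-0.063), *Rac2* (-0.33) and *Spi1* (0.089). A 75th percentile over detected probes turned *Cyba* (-0.034), *Ncf4* (-0.041) and *Rac2* (-0.17), and gave 3371 probes higher and 10088 lower in place of 5540 and 5484, so that 25% of calls were higher against 50.3%. The mean of all *Cyba* probes was -0.066, since it holds the cDNA probe. With each array left out in turn, *Cybb*, where tested, ranged from -0.43 to -0.0024, *Ncf4* from 0.012 to 0.29, *Ncf1* from 0.082 to 0.31, *Rac2* from -0.040 to 0.10 and *Spi1* from -0.19 to 0.084, probes called higher from 127 to 4978 and lower from 30 to 5448, and pathway genes called higher from 1 to 7 and lower from 0 to 11. Without a filter on dim probes 2324 probes were called higher and 2214 lower, with 1 pathway gene lower, where more probes were tested. The methods' t-test called 0 probes and 0 pathway genes in either direction after adjustment, with 13541 probes at an unadjusted p under 0.05 against 15506 in limma. Without control arrays 2 and 3, where the lone control is assumed to vary like the other group, 0 probes and 0 pathway genes were called in either direction, with 7122 probes at an unadjusted p under 0.05, and *Rac2* was at -0.034. The cause of these shifts was not tested.

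Deviations of same-numbered arrays from their group means had correlations of -0.065, 0.189 and 0.111 for numbers 1, 2 and 3. The labels do not say that the numbers pair samples, and with 3 arrays per group these correlations cannot decide it. With the replicate block 10173 probes and 0 subunit genes were called against 11024 and 0, and among the named genes *Prkcb* and *Pik3c3* were no longer called. Arrays numbered 2 and 3 correlated best with their own number, and those numbered 1 did not.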
